A study of Mus musculus with 2 samples.

Results

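The transcripts of the hypoxia-inducible factor (Hif) pathway examined here are 10 genes of 24532 in the table: the factor subunit Hif1a, the oxygen-sensing prolyl hydroxylases Egln1, Egln2 and Egln3, and the target genes Vegfa, Adm, Ldha, Pdk1, Bnip3 and Ankrd37. They were taken by gene symbol, and all 10 were found. Their levels were compared between mouse E14 embryonic stem cells (ESCs), labelled wild type, and the Sox2 T258A mutant ESCs, each with 1 RNA-seq library of polyadenylated RNA. The mutant cells, which the study calls E14-Sox2 TA/WT, derive from E14 as a selected clone in which CRISPR/Cas9 editing changed threonine 258 of Sox2 to alanine in 1 allele, while the other allele encodes wild-type Sox2. Sox2 is a transcription factor of pluripotent cells, and threonine 258 can carry O-GlcNAc, a single sugar that alanine cannot accept. Per the study's methods, E14 cells were cultured in serum with leukemia inhibitory factor (LIF). The edited clones were isolated in 2i, a pair of inhibitors of Mek and Gsk3, and were normally kept in serum, LIF and 2i until 2i was withdrawn for some passages before use. Oxygen tension is not given in the sources used here. Genotype, clone and culture history differ together between the libraries and cannot be told apart.

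Cells sense oxygen by way of the Egln enzymes. With oxygen present they hydroxylate prolines of the Hif alpha subunits, which the Vhl ubiquitin ligase then marks for degradation. When oxygen is scarce the alpha subunits persist, pair with Arnt and bind short DNA motifs near their targets, which switch metabolism to glycolysis, favour vessel growth and, through Egln3 and Egln1, restrain the pathway itself. Because this control acts on protein stability, transcript levels of Hif1a are not a readout of its activity. In ESCs, glycolysis and Hif activity are known to differ between naive and primed pluripotency.

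Ratios are given as log2 of the TPM (a level scaled for transcript length and for the size of the library) in Sox2 T258A over that in E14, with a 95% interval that covers the counting of reads alone. As each genotype had a single library, the spread between cultures is unknown and nothing was tested.

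The libraries held 60263536 reads in E14 and 44609228 in Sox2 T258A cells. Sox2 itself had 28936 and 14270 reads and a TPM of 372.5 and 274.2, and the gene table holds no sequence from which the edit could be seen. The 8 ESC markers passed a TPM of 10 in both libraries, with a sum of 12109 in E14 and 9073 in Sox2 T258A cells, to which Dppa5a gave the largest part in each. Nanog, a factor of naive pluripotency, was more than 2-fold lower in Sox2 T258A cells (TPM 526.9 and 251.3, log2 ratio -1.07), and Utf1 was the highest of the 8 (0.24). Markers of other cell types summed to less and moved in both directions. The 7 trophoblast markers summed to a TPM of 65.7 in E14 and 43.3 in Sox2 T258A cells, a difference carried by Tfap2c (50.9 and 16.1), while 4 of the 7 were higher in Sox2 T258A cells, Cdx2 most of all (32 and 554 reads, TPM 0.474 and 12.2, log2 ratio 4.69), and Elf5 was at 0 in both. The 8 fibroblast markers summed to 49.5 and 18.2, a difference carried mostly by Thy1 (40.1 and 11.4). Pdgfra, which is also among the 7 primitive endoderm markers, was lower as well (1280 and 218 reads, TPM 6.48 and 1.57). Col3a1 (15 and 151 reads), Col1a2 (43 and 109 reads) and Col1a1 had a higher TPM in Sox2 T258A cells, each under a TPM of 10 in both libraries. Lum, Dcn and Postn were at 0 in both. All 7 primitive endoderm markers were lower in Sox2 T258A cells, with sums of 46.9 and 17.4, and Gata4 was the only one past a TPM of 10 (1607 and 274 reads, log2 ratio -1.98). Their part in the differences below was not tested, and fewer cells of a type and less RNA per cell cannot be told apart in these bulk samples.

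The DNA core bound by Hif is ACGTG or GCGTG, which reads CACGT or CACGC on the opposite strand. The 250 bases before the RefSeq start (GRCm38.p6) are shown for the 4 genes that differed more than 2-fold and for Ldha, the most abundant of the 10, with matches to these cores in capitals.
Egln1 (chr8:124949255-124949504, minus strand): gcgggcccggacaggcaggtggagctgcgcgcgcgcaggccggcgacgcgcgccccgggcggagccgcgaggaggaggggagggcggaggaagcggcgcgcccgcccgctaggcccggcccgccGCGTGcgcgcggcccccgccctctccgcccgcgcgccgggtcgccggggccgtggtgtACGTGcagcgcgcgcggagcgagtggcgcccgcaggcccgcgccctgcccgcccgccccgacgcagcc
Egln3 (chr12:54203875-54204124, minus strand): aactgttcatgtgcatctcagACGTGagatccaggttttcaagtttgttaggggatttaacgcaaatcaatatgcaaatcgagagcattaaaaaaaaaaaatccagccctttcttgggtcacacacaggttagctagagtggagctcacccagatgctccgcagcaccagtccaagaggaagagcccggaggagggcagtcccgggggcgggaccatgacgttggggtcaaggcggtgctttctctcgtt
Pdk1 (chr2:71872974-71873223, plus strand): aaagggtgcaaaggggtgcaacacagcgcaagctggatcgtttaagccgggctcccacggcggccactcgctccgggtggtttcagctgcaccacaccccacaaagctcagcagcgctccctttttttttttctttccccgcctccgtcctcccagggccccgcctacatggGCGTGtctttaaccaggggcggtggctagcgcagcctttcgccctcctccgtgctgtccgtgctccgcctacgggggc
Ldha (chr7:46845554-46845803, plus strand): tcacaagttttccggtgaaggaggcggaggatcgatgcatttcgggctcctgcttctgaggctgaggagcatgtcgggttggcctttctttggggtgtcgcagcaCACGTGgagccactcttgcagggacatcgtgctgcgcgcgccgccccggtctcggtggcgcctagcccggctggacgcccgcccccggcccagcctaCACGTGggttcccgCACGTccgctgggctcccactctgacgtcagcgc
Vegfa (chr17:46032378-46032627, minus strand): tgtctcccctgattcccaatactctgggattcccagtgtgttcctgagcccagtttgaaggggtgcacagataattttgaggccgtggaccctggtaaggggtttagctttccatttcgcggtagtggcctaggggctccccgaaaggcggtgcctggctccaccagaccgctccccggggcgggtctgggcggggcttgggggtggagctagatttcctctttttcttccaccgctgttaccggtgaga
Egln1 held a GCGTG and an ACGTG, and the latter began 68 bases before the start. Egln3 held an ACGTG that began 229 bases before it, and Pdk1 a GCGTG that began 78 bases before it. The first listed start of Ldha, which lies inside the span given for the gene, had CACGTG, a core on both strands at once, at 2 places. It also had a CACGT that began 34 bases before the start. The second listed start of Ldha had 1 core, a CACGC, and the second start of Pdk1 had none. The first start of Vegfa had no match, while a second Vegfa start, inside the gene, had 2. Over the 14 listed starts of the 10 genes, 12 windows (85.7%) held at least 1 core and 8 (57.1%) held ACGTG in either orientation. Among the windows of all 32851 starts the shares were 38.6% and 16.6%, and among the 9309 starts of genes expressed at TPM 10 or above in either library they were 59.0% and 23.1%. A match is a description of letters and not a bound site, and the Vegfa window says nothing of sequence farther upstream.

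Of the 10 genes, 9 had a higher TPM in Sox2 T258A cells and 1, Vegfa, had a lower one. Vegfa and Egln3 differed most, followed by Pdk1 and Egln1. The filter on low values, TPM 10 or above in either library, was passed by 8 of the 10, and Adm and Ankrd37 fell short of it. Egln1 and Egln3 passed it through the Sox2 T258A library only, so their place among the 8 already requires a difference. Past 2-fold were 3 genes that were higher (Egln3, Pdk1 and Egln1) and 1 that was lower (Vegfa). Over all 9094 genes past the filter, 8.24% differed more than 2-fold, 4.17% higher and 4.07% lower, and 57.3% had a higher TPM in Sox2 T258A cells. That balance depends on the scaling, since the FPKM ratio placed the median gene at -0.06 in place of 0.08 and gave 3.06% higher and 5.45% lower. Egln3, Pdk1 and Vegfa had a counting interval entirely past 2-fold (3 of the 8 genes past the filter, beside 6.38% of all genes), and it lay wholly above 0 for 7 of the 8 (50.2% of all genes). It excluded 0 in either direction for all 8, which 85.4% of all genes also did. The median log2 ratio was 0.56 over all 10 genes, beside 0.08 over all genes past the filter.

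**Figure D1:**
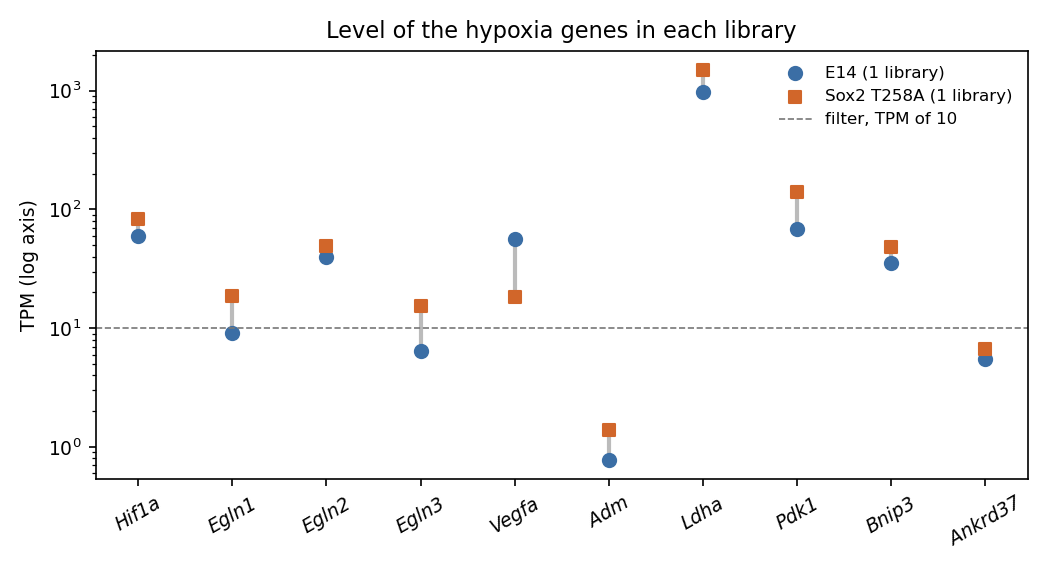
TPM on a log axis for the 10 hypoxia genes, with 1 point per library (circles, E14; squares, Sox2 T258A) and a dashed line at the filter of 10. The square lies above the circle for every gene except Vegfa, and Adm and Ankrd37 lie under the line in both libraries.

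Hif1a encodes the oxygen-labile subunit of the factor. It spans 73901324 to 73947554 on chromosome 12 (GRCm38). Reads numbered 8826 in E14 and 8418 in Sox2 T258A cells, for a TPM of 59.4 and 83.9, which is a log2 ratio of 0.50 (0.46 to 0.54). The gene was higher in Sox2 T258A cells but short of 2-fold, and 18.1% of the genes past the filter had a higher ratio. The value came to 0.14 once a trend of the ratio on GC content and transcript length was removed. Arnt, the stable partner of the alpha subunits, had a TPM of 80.8 in E14 and 58.3 in Sox2 T258A cells (log2 ratio -0.47, -0.52 to -0.42). Within E14, Hif1a stood at 0.735 of the TPM of Arnt, and within Sox2 T258A cells at 1.44 times it, so the order of the partners was opposite in the libraries.

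The prolyl hydroxylases were unequal in level and in difference. Egln2, the most abundant of the 3, lies on chromosome 7 (27158658 to 27166802). With 2636 reads in E14 and 2170 in Sox2 T258A cells, its TPM was 39.7 and 48.8, with a log2 ratio of 0.30 (0.21 to 0.38). Egln1, regarded as the main hydroxylase of Hif1a at normal oxygen, lies on chromosome 8 (124908587 to 124949254). Its TPM was 9.11 in E14 (1012 reads) and 18.6 in Sox2 T258A cells (1386 reads), a log2 ratio of 1.03 (0.91 to 1.15) that lay at 2-fold within counting error. Egln3, a hydroxylase that is itself a strong Hif target, lies on chromosome 12 (54178981 to 54203874). From 540 reads in E14 and 873 in Sox2 T258A cells its TPM was 6.41 and 15.5, and its log2 ratio of 1.27 (1.11 to 1.43) was exceeded by 196 of the 9094 genes. Both Egln1 and Egln3 gave more reads in the smaller library, whereas Egln2 gave fewer. The study chose Egln3 as a putative target of Sox2 T258 O-GlcNAc partly on these libraries, so its direction here is not independent evidence.

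The make-up of the hydroxylase family does not depend on how the libraries are scaled against each other. Egln2 held 71.9% of the summed TPM of the 3 genes in E14 and 58.9% in Sox2 T258A cells. The share of Egln1 was 16.5% and 22.5%, and that of Egln3 was 11.6% and 18.6%. Per TPM of Egln2 there was 0.161 of Egln3 in E14 (0.147 to 0.177) and 0.317 in Sox2 T258A cells (0.292 to 0.343), intervals that do not overlap. The ratio of Egln3 to Egln1 was 0.703 (0.632 to 0.781) and 0.829 (0.761 to 0.903), intervals that overlap, so at this depth a different tilt of these 2 enzymes was not resolved.

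Chromosome 8 as a whole was shifted toward Sox2 T258A cells, with a median log2 ratio of 0.28 over its 548 genes past the filter. Egln1 and Ankrd37 lie on it, as do Vegfc, Pdp2 and Siah1a, which are named below. Relative to that median, Egln1 stood at 0.75, short of 2-fold, and Ankrd37 at 0.003. Vegfc stood at 0.63, Pdp2 at 0.55 and Siah1a at 0.22. The 10 genes nearest to Egln1 past the filter had ratios from -0.25 to 0.97 with a median of 0.37, and none of them differed more than 2-fold. Around Egln3, Pdk1 and Vegfa the medians of the 10 nearest genes were -0.04, 0.29 and -0.09, and none of those genes differed more than 2-fold either. The same held around Adm, Ldha and Bnip3. Of the 10 nearest genes, 3 differed more than 2-fold around Hif1a, 2 around Ankrd37 and 1 around Egln2, beside 8.24% of all genes.

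**Figure D2:**
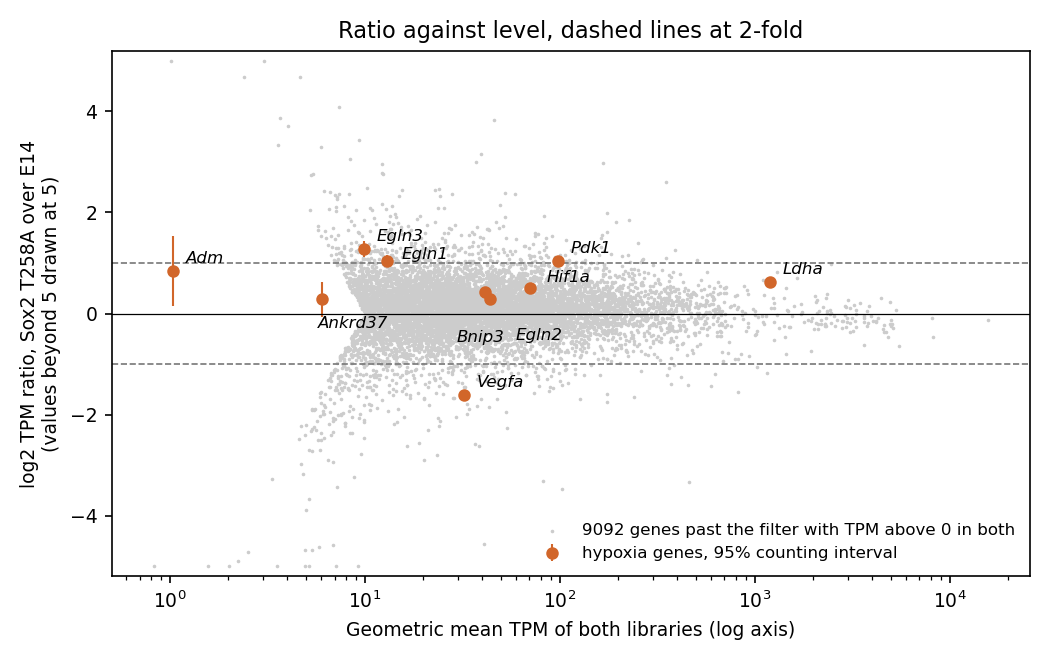
Log2 TPM ratio (Sox2 T258A over E14) against the geometric mean TPM of both libraries on a log axis, for 9092 genes past the filter with TPM above 0 in both (grey) and for the 10 hypoxia genes (orange, bars give 95% counting intervals, dashed lines mark 2-fold). Vegfa lies below the lower line at -1.62, Egln3, Egln1 and Pdk1 lie above the upper line, and the interval of Adm is the widest.

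Vegfa encodes the vascular endothelial growth factor that drives vessel growth, and lies on chromosome 17 (46016993 to 46032377). Its TPM was 56.5 in E14 (6104 reads) and 18.4 in Sox2 T258A cells (1285 reads). The level was thus 3.07-fold lower in Sox2 T258A cells, with a log2 ratio of -1.62 (-1.70 to -1.53), and 130 of the 9094 genes had a lower ratio. In rank by TPM it went from place 3007 in E14 to 6819 in Sox2 T258A cells. The table lists 10 RefSeq transcripts under this symbol and gives 1 value for all of them. The mean transcript length implied by reads per TPM differed by -3.69% for Vegfa between Sox2 T258A and E14 cells, relative to the median gene, whereas for the other 9 genes the same measure lay between -0.25% and 0.95%.

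Vegfb and Vegfc stood apart from Vegfa. Vegfb had a TPM of 51.4 in E14 and 53.1 in Sox2 T258A cells (log2 ratio 0.05, or 0.45 with the GC and length trend removed and -0.10 with the FPKM ratio), and Vegfc, a ligand of lymphatic vessels, had 11.3 and 21.3 (0.91, 0.77 to 1.06). Vegfa held 44.7% of the summed TPM of the 5 ligand genes in E14 and 18.3% in Sox2 T258A cells. The share of Vegfc was 8.93% in E14 and 21.1% in Sox2 T258A cells. In E14 there was 1.10 of Vegfa per TPM of Vegfb (1.05 to 1.16), and in Sox2 T258A cells 0.347 (0.321 to 0.374). Per TPM of Vegfc, Sox2 T258A cells had 0.866 of Vegfa (0.793 to 0.946). By TPM, Vegfa thus led the family in E14 and came after both Vegfb and Vegfc in Sox2 T258A cells. Reads, which are not per length, gave another order in Sox2 T258A cells, with 1391 for Vegfb, 1285 for Vegfa and 845 for Vegfc. The order of Vegfa and Vegfc there thus rests on the transcript lengths behind TPM.

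Adm encodes adrenomedullin, a secreted vasodilator peptide, and lies on chromosome 7 (110627657 to 110629820). It was barely expressed, with 34 reads in E14 (TPM 0.781) and 41 in Sox2 T258A cells (TPM 1.39). The log2 ratio of 0.83 had an interval from 0.14 to 1.53, so at this depth the difference was resolved neither from 2-fold nor from a small one, and a pseudocount of 1 TPM brought it to 0.43.

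Ldha encodes the lactate dehydrogenase subunit that favours the conversion of pyruvate to lactate, and lies on chromosome 7 (46842274 to 46855627). It ranked 133 by TPM in E14 and 97 in Sox2 T258A cells, with a TPM of 969 (49487 reads) and 1489 (50960 reads). The log2 ratio of 0.62 had the narrowest interval of the 10 genes (0.60 to 0.64). Ldhb, which favours the reverse reaction, had a TPM of 282.0 and 201.8 and a log2 ratio of -0.48. Per TPM of Ldhb there was 3.44 of Ldha in E14 (3.37 to 3.51) and 7.38 in Sox2 T258A cells (7.17 to 7.59), which moved the share of Ldha among the 5 lactate dehydrogenase genes from 77.2% to 87.9%. GENCODE lists 9 pseudogenes that resemble Ldha at 90% identity or more, and the only one in the table, Gm13315, had 0 and 1 reads. The others, such as Gm5452 at 95.9% identity, have no values, and how reads shared with them were counted is not stated.

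Pdk1 encodes a kinase that switches off pyruvate dehydrogenase and so keeps pyruvate out of the mitochondrial cycle. It lies on chromosome 2 (71873215 to 71903858) and had 11179 reads in E14 and 15384 in Sox2 T258A cells, for a TPM of 68.5 and 140.6. The log2 ratio was 1.04 (upper bound 1.07, lower bound just above 2-fold), and it fell short of 2-fold with most other scalings. The other kinases were not among the genes past 2-fold. Pdk3 had a log2 ratio of 0.01, whose sign changed with the scaling, Pdk2 had 11.6 and 8.29 (log2 ratio -0.49) and Pdk4 had 7.67 and 6.63 (-0.21). Pdk1 held 53.7% of the summed TPM of the 4 kinases in E14 and 71.9% in Sox2 T258A cells, and its ratio to Pdk3 was 1.72 (1.65 to 1.80) and 3.52 (3.34 to 3.70). Pdha1, the subunit that these kinases phosphorylate, had a log2 ratio of 0.10, whose sign changed with the scaling, and Pdp2, a phosphatase that opposes them, had 0.83 (1543 and 1840 reads).

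**Figure D3:**
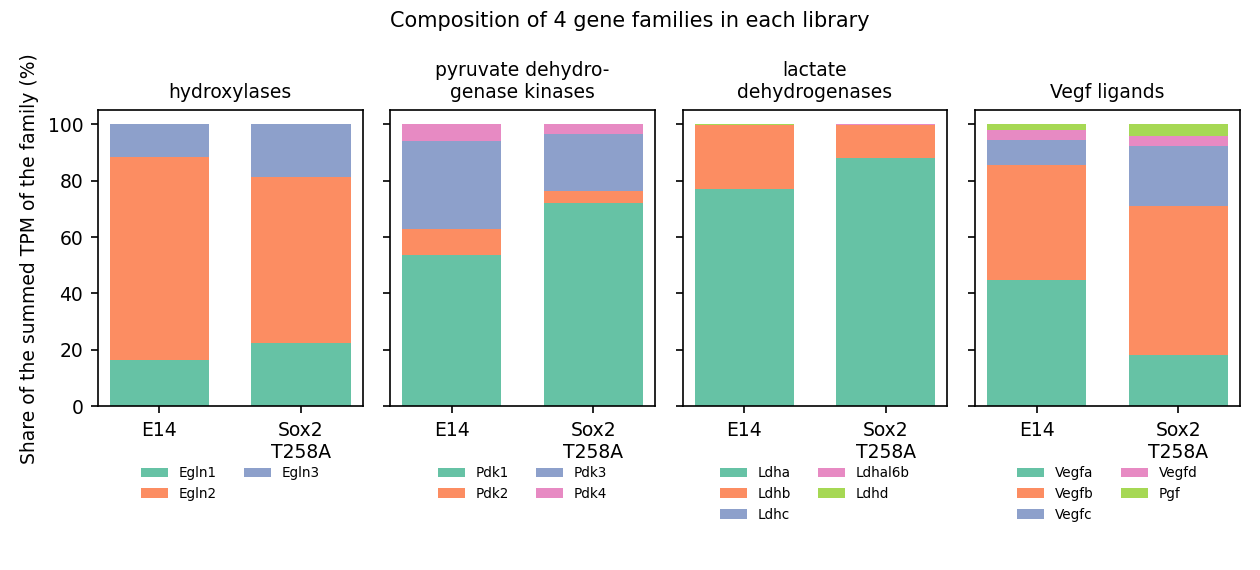
Share of the summed TPM of a family held by each gene (stacked bars, percent) in E14 and in Sox2 T258A cells, for the prolyl hydroxylases, the pyruvate dehydrogenase kinases, the lactate dehydrogenases and the Vegf ligands. The share of Pdk1 is larger in Sox2 T258A cells (71.9% against 53.7%), that of Ldha is larger (87.9% against 77.2%), and that of Vegfa is smaller (18.3% against 44.7%).

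Bnip3 encodes a mitochondrial outer-membrane protein that promotes mitophagy, and lies on chromosome 7 (138890836 to 138909506). It had 1978 reads in E14 and 1786 in Sox2 T258A cells, a TPM of 35.8 and 48.2, and a log2 ratio of 0.43 (0.34 to 0.52). Its relative Bnip3l had 57.1 and 69.6 (0.29). Bnip3 has near-identical copies in GENCODE, such as Gm6532 at 98.7% identity, none of which is a row of the table, and how reads shared with them were counted is not stated.

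Ankrd37 encodes an ankyrin-repeat protein and is a common member of hypoxia signatures. On chromosome 8 (45996908 to 46000414) it had 157 reads in E14 (TPM 5.50) and 128 in Sox2 T258A cells (TPM 6.71). The log2 ratio of 0.29 had an interval across 0 (-0.06 to 0.63), the only such interval among the 10 genes. Its exons overlap those of Ufsp2 and Lrp2bp on the opposite strand. Ufsp2 had 2985 and 1817 reads, and because the handling of strand is not stated, reads of these genes cannot be told apart from reads of Ankrd37.

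**Figure D4:**
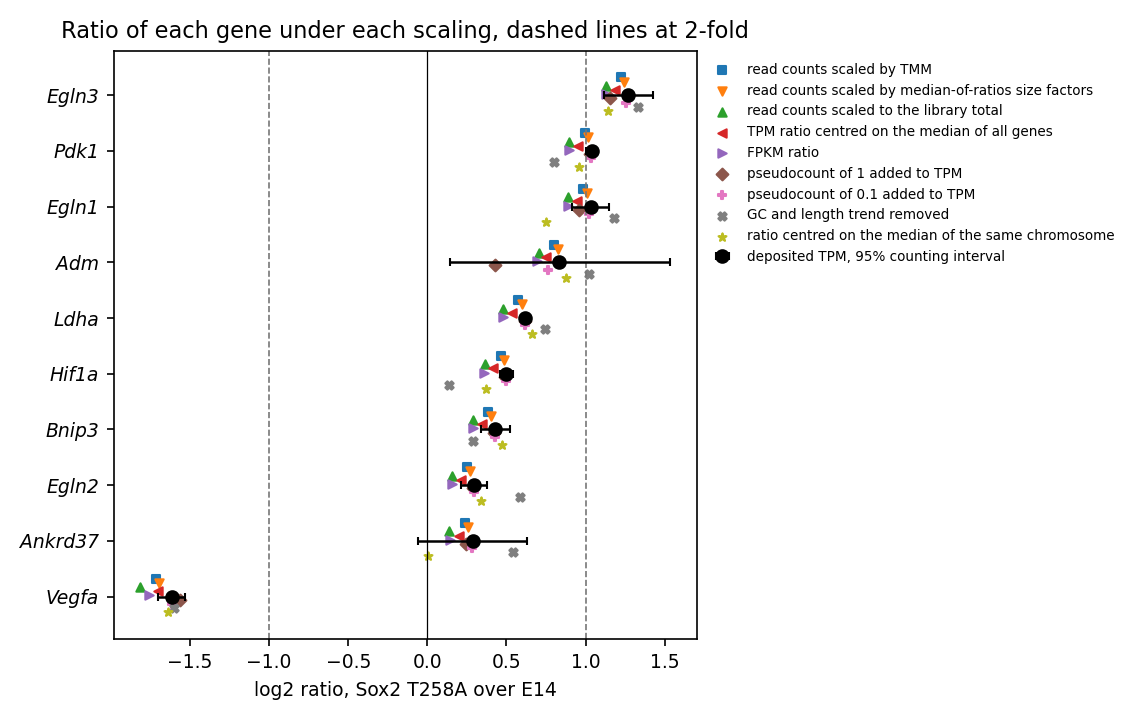
Log2 ratio (Sox2 T258A over E14) of each of the 10 genes with the deposited TPM (black circles, bars give 95% counting intervals) and under 9 other scalings or corrections (coloured symbols, dashed lines at 2-fold). Each gene keeps its side of 0 under all 9, Vegfa and Egln3 keep their side of 2-fold, and Egln1 and Pdk1 scatter around it.

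The wider pathway was described with 10 lists written by role, which hold 98 genes, the 10 above included. Of these, 71 passed the filter. Among the 63 that are not one of the 10, 5 were more than 2-fold higher (Cited2, Igfbp3, Slc16a3, Bhlhe40 and Tfrc) and 4 were more than 2-fold lower (Ddit4, Stc2, Trf and Hk1), which is 14.3% beside 8.24% of all genes. Their median log2 ratio was 0.08, as for all genes, and 34 of the 63 had a higher TPM in Sox2 T258A cells. Stc2 and Trf passed the filter through the E14 library only, so their place among the 63 already requires a difference. The lists were written with earlier results of these data known, so the share of 14.3% is a description and was not tested.

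Among the machinery that acts on the factors, none of the 8 genes of Hif degradation differed more than 2-fold in deposited TPM, beside 8.24% of all genes, and their median was 0.08. Vhl, the substrate receptor of the ligase, had a TPM of 16.7 and 17.7 (log2 ratio 0.08, with a sign that changed with the scaling). Siah2, a ligase that targets the Egln enzymes, was lowest of these at -0.98 (-1.17 to -0.80) and passed 2-fold in 6 of 9 other scalings, and Siah1a was highest at 0.50. Hif1an, which hydroxylates an asparagine of the alpha subunits and so blocks their coactivators, had 0.24. Cited2, a Hif target that competes with Hif alpha subunits for the coactivators Ep300 and Crebbp, had a TPM of 29.9 in E14 and 72.3 in Sox2 T258A cells (log2 ratio 1.27, 1.19 to 1.36), while Ep300 had 0.61, Crebbp 0.72 and the coactivator Ncoa2 0.38. With the GC and length trend removed, Ep300 came to 0.28, Crebbp to 0.40 and Ncoa2 to 0.04. The coactivator Ncoa1, under the filter, had -0.12 (TPM 9.56 and 8.79).

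Of 20 glycolytic targets, 19 passed the filter, and 3 of them (Pdk1, Slc16a3 and Hk1) differed more than 2-fold, beside 8.24% of all genes, with a median of 0.35 for the list and 0.28 without Ldha and Pdk1. Slc16a3, the exporter of lactate, had a TPM of 25.1 in E14 and 51.8 in Sox2 T258A cells (log2 ratio 1.04, 0.96 to 1.13), at 2-fold within counting error. The glucose transporter Slc2a1 had 0.63, whereas the transporter Slc2a3, with a higher TPM (587 and 553), had -0.09. The hexokinase Hk2 had 0.67, whereas the hexokinase Hk1, with a TPM of 57.8 and 28.3, was the lowest of the list at -1.03 (-1.10 to -0.96). Of the 17 genes past the filter other than Ldha and Pdk1, 10 had a higher TPM in Sox2 T258A cells, beside 57.3% of all genes.

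The remaining target lists held genes on both sides. Among the 4 angiogenic and secreted targets past the filter, Igfbp3, a binding protein of insulin-like growth factors, was highest (TPM 15.4 and 49.4, log2 ratio 1.68), and Stc2, a secreted glycoprotein, accompanied Vegfa on the lower side (13.9 and 5.60, -1.31). Of 11 stress, mitophagy and growth targets past the filter, Ddit4, a brake on mTOR signaling, was lowest, with 16891 reads in E14 and 3387 in Sox2 T258A cells (TPM 318 and 95.2, log2 ratio -1.74), and Bhlhe40, a transcriptional repressor, was highest (TPM 11.7 and 35.3, 1.59). The iron genes parted, with the transferrin receptor Tfrc higher (TPM 70.8 and 158.5, 1.16) and transferrin, Trf, lower (21.4 and 9.29, -1.20). The 8 chromatin and matrix enzyme targets past the filter ran from P4ha2, a collagen prolyl hydroxylase (-0.91, and past 2-fold in 3 of 9 other scalings), to Kdm4c, a histone demethylase (0.61). Apart from Egln1 and Egln3, the list of other signature genes ran from Wsb1 (-0.44) to Narf (0.42).

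**Figure D5:**
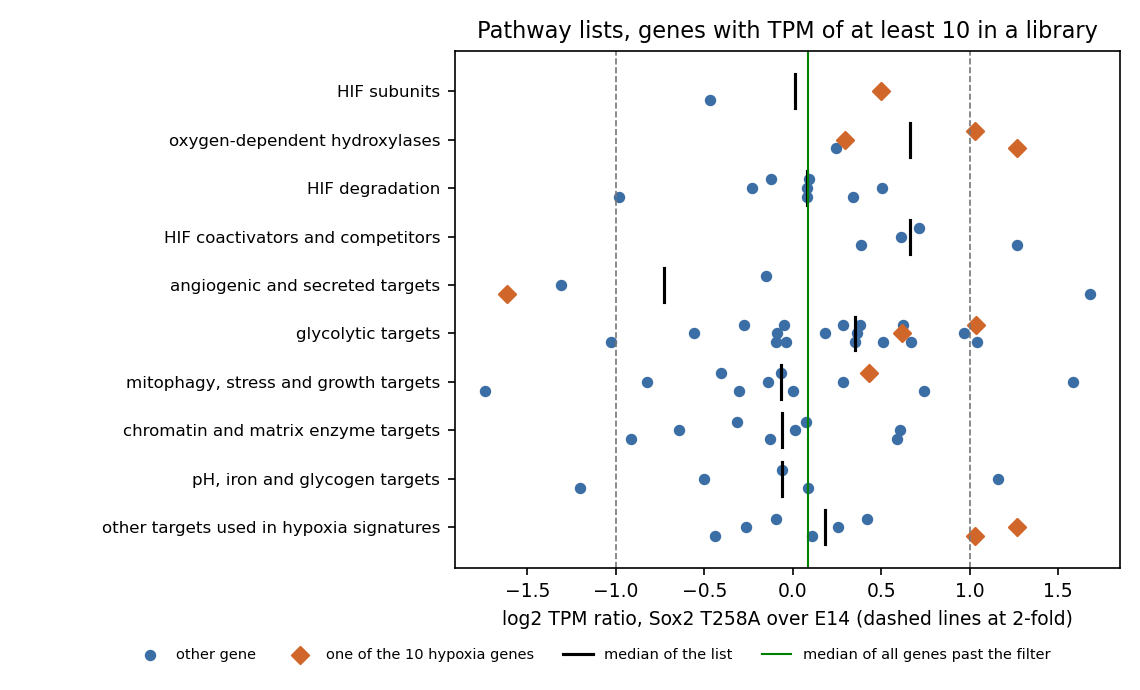
Log2 TPM ratio (Sox2 T258A over E14) of the genes past the filter in 10 lists of the Hif pathway, with the 10 hypoxia genes as orange diamonds, other genes as blue circles, list medians as black bars, the median of all genes past the filter as a green line and 2-fold as dashed lines. Target lists spread to both sides, from Ddit4 at -1.74 to Igfbp3 at 1.68, and Siah2, the lowest of the 8 genes of Hif degradation, lies at -0.98, close to the line that it passes in 6 of 9 other scalings.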

How the data were processed

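Polyadenylated RNA of E14 and Sox2 T258A ESCs was sequenced on an Illumina Nova-Seq system per the study's methods, with 1 library each. The submitters' processing notes name bcl2fastq 2.20.0, Trimmomatic, HISAT2 2.1.0 and StringTie 2.1.3b, and the builds mm10 and hg19, without roles. The deposited table is for mm10. As deposited, read counts are raw whole numbers, FPKM is per transcript length and library size by the authors, and the deposited TPM sums to 993247 in E14 and 994155 in Sox2 T258A cells. Handling of strand and of reads with several placements is not stated.

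TPM ratios were taken without a pseudocount. Genes at TPM 10 or above in either library were compared at 2-fold, the fold that the study used. Their share past it is the background. The 95% intervals are exact (Clopper-Pearson) from read counts, moved to the TPM scale, checked on simulated data, and reflect counting alone, as PCR copies of a molecule are not independent. Alternatives used edgeR 4.0.16 (TMM) and DESeq2 1.42.0 (size factors) for scaling only, other filters, thresholds and pseudocounts, FPKM, centring, and a trend on GC content and length (medians in 20 bins each, GENCODE). Promoters and positions are from RefSeq (GRCm38.p6), and copies of the genes were found with minimap2 2.31-r1302.

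The 10 genes and all lists were chosen with earlier results of these data known. Named are the 10 genes, Sox2, and from each list the genes past the filter and 2-fold and those with the highest and lowest ratio. Paralogs, partners and opposing enzymes of the 10 genes were named besides, with their values seen. Further list genes were also picked with their values seen, among them Vhl, Ep300, Crebbp, Slc2a1, Slc2a3 and Hk2. So were genes under the filter, such as Vldlr, Car12, Apln, Col3a1 and Col1a2. The list symbol Figf was matched to Vegfd.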

Additional observations from a re-analysis of the deposited data

How the results depend on the processing

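The number of the 10 genes more than 2-fold higher was 3, and it was 1 with TMM, scaling to the library total, centring on the median of all genes, the FPKM ratio, or centring on the median of the same chromosome (Egln3 in each case). It was also 1 at a TPM of at least 20 (Pdk1, since Egln1 and Egln3 do not pass that filter) and 0 at 3-fold. It was 2 with a pseudocount of 1 TPM (Egln3 and Pdk1) and with the GC and length trend removed (Egln1 and Egln3). It was also 2 with the counting interval wholly past 2-fold (Egln3 and Pdk1), and 4 at 1.5-fold, where Ldha joined. Vegfa remained the 1 gene more than 2-fold lower in every alternative run, beside 1.5% (3-fold) to 18.7% (no filter) of all genes. Egln1 ranged from 0.75 (same chromosome) to 1.18 (GC and length trend removed) and Pdk1 from 0.80 (trend removed) to 1.04, so both lay on either side of 2-fold. The median log2 ratio of those of the 10 genes past the filter, 0.56, came to 0.52 with TMM, 0.42 with the library total, 0.47 with centring on all genes, 0.42 with FPKM, 0.66 with the trend removed, 0.50 at a TPM of at least 5 and 0.46 at 20. The median of all genes moved too, from 0.08 to 0.04 with TMM, -0.06 with the library total and -0.06 with FPKM. Centring sets it to 0. It was 0.08 with the trend removed, 0.07 at a TPM of at least 5 and 0.095 at 20. The shift in the share of a family (Sox2 T258A minus E14) was 10.8 percentage points for Ldha and 9.36 by reads, 18.2 for Pdk1 and 12.9 by reads, and -26.4 for Vegfa and -32.8 by reads, where reads are not per length. TMM, size factors, the library total, FPKM and centring on all genes shift all genes nearly alike, apart from the length term in TPM. Moves under these settings are therefore mostly common to all genes. Where values moved under the other corrections, the cause was not tested. Of the other named genes past 2-fold, Slc16a3 stayed past it in 5 of 9 scalings, Hk1 and Tfrc in 8 of 9 each, and Ramp2 in 7 of 9. Siah2 and P4ha2, within 2-fold in deposited TPM, passed it in 6 and 3 of 9 scalings, and came to -1.13 and -1.06 with the FPKM ratio. No paired analysis was possible because each genotype had 1 library. At this depth Adm and Ankrd37 were too low to place.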

Other observations

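Receptors and further ligands of the secreted targets were looked at last, and those under the filter were chosen after their values were seen. The receptors of Vegf were low in both libraries. Kdr, the main receptor of Vegfa, had 19 reads in E14 and 75 in Sox2 T258A cells (TPM 0.105 and 0.648), and the coreceptor Nrp2 had 269 and 710 reads (TPM 1.30 and 5.12). Adm2, a relative of Adm, had more reads than Adm itself in both libraries and was lower in Sox2 T258A cells (485 and 80 reads, TPM 11.9 and 2.92, log2 ratio -2.02, -2.38 to -1.68). Of the partner proteins of the adrenomedullin receptor, Ramp2 had a TPM of 14.5 and 7.16 (log2 ratio -1.02, -1.32 to -0.73) and Ramp3 had 24.3 and 26.8, while the receptor gene Calcrl had 25 and 15 reads.

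Among genes under the filter, Epas1, the second Hif alpha subunit, had 605 reads in E14 and 1036 in Sox2 T258A cells, a TPM of 3.58 and 9.17 and a log2 ratio of 1.36. Its share of the summed TPM of the alpha subunits Hif1a, Epas1 and Hif3a was 5.31% and 9.11%. Vldlr, a lipoprotein receptor, had 1077 and 233 reads (log2 ratio -1.63), and Car12, a carbonic anhydrase, had 499 and 128 (-1.39). Apln, an angiogenic peptide, had 22 and 136 reads (3.21, 2.55 to 3.93).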
